A study of Saccharomyces cerevisiae with 30 samples.

Results

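Footprints of all soluble ribosomes were compared with footprints of soluble polysomes, both from budding yeast that had been given cycloheximide at harvest. The comparison holds 1 library a side and covers the 4896 open reading frames (ORFs), of 5904 counted, that had 100 or more counts over both libraries. The other 1008 ORFs, 263 of them with no count in either library, were left out. At the edge of this minimum, 4 ORFs with 99 counts had log2 ratios from -0.00 to 0.29, and the 1 ORF with 100 counts had 0.32.

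The study profiled ribosomes of soluble, membrane-bound and signal recognition particle (SRP) associated fractions. The cells were strain BY4741 with the genotype srp72::SRP72-TAP-HIS3MX, so that Srp72, a protein subunit of SRP, carried a purification tag in every library used here, controls included. Cultures were in mid-log phase in YPD, a rich glucose medium, and were filtered and frozen. For the cycloheximide libraries the drug was added to 100 µg/mL immediately before filtration. A further pair of soluble polysome libraries from the same genotype, made with no drug, is set beside the comparison as 2 libraries of 1 group. The labels do not say which culture each library came from, so the spread of this pair may be technical.

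A ribosome that translates alone on a message is a monosome, and several ribosomes spaced along one message form a polysome. A soluble ribosome sample holds both, whereas a polysome sample is taken from the heavy part of a sucrose gradient and leaves monosomes out. Cycloheximide blocks elongation and holds ribosomes on their messages, and RNase then trims each message to the fragment that a ribosome covers. Messages with very short ORFs have room for few ribosomes, and long ORFs can carry many. SRP binds signal sequences and transmembrane segments as they leave the ribosome and brings the ribosome to the endoplasmic reticulum (ER) membrane. The compared libraries differ in the gradient step and are also separate preparations, which cannot be told apart with 1 library a side. No p-value is given for this reason, and intervals cover counting error only. All values are shares within a library, so more footprints of one ORF and fewer of the others cannot be told apart.

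The library of all soluble ribosomes held 16613246 counts and that of soluble polysomes 21512915, and the drug-free pair held 34661880 and 25752424. LEU2, URA3 and MET17, which BY4741 lacks, were at 0 counts in both cycloheximide libraries. ORFs with a signal sequence or transmembrane segment held 3.55% of the counts of all soluble ribosomes, 3.66% of soluble polysomes and 12.9% of the cycloheximide library of membrane ribosomes. Cytosolic ribosomal protein genes held 21.6% of the counts of all soluble ribosomes and 24.3% of soluble polysomes.

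Most ORFs had nearly the same share of footprints in both libraries. The log2 ratio of all soluble ribosomes over soluble polysomes, from CPM (counts per 1000000) scaled by TMM factors, had a median of -0.01 and a middle range from -0.12 to 0.13. Its SD over ORFs was 0.223, against 0.161 between the drug-free replicates. Among the 3061 ORFs with 1000 or more counts the SD was 0.196 against 0.121. At least 1.5-fold higher in all soluble ribosomes were 78 ORFs (1.59% of those compared), and at least 1.5-fold lower were 6 (0.123%), which makes 84 in either direction (1.72%). Between the drug-free replicates 23 ORFs (0.47%) passed the same fold, all of them higher in replicate 1. Of the 78 ORFs, 9 were under 50 codons, which is 75% of the 12 compared at that length. Another 32 were of 800 codons or more (4% of 800), 21 of these of 1200 or more (8.68% of 242). The other 37 were from 50 to under 800 codons. Their share was 3.92% at 50 to under 100 codons and from 0.616% to 0.911% in the bins from 100 to under 800.

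The ratio followed ORF length in a curve with a minimum from 100 to under 200 codons. In that bin, 649 ORFs had a median log2 ratio of -0.15 and 88 of them lay above 0. The median was -0.07 over 1525 ORFs of 200 to under 400 codons, 0.05 over 1757 of 400 to under 800, 0.13 over 558 of 800 to under 1200 and 0.22 over 242 of 1200 or more. Long ORFs were therefore higher and ORFs of 100 to under 400 codons lower in all soluble ribosomes. Between the drug-free replicates the bin medians from 100 codons upwards ran from -0.01 to 0.07. The median of ORFs under 200 codons minus that of ORFs of 800 or more was -0.27. The Spearman correlation between length and ratio was 0.46 over the 4896 ORFs and 0.13 for the drug-free replicates, both across ORFs that share the same libraries.

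**Figure D1:**
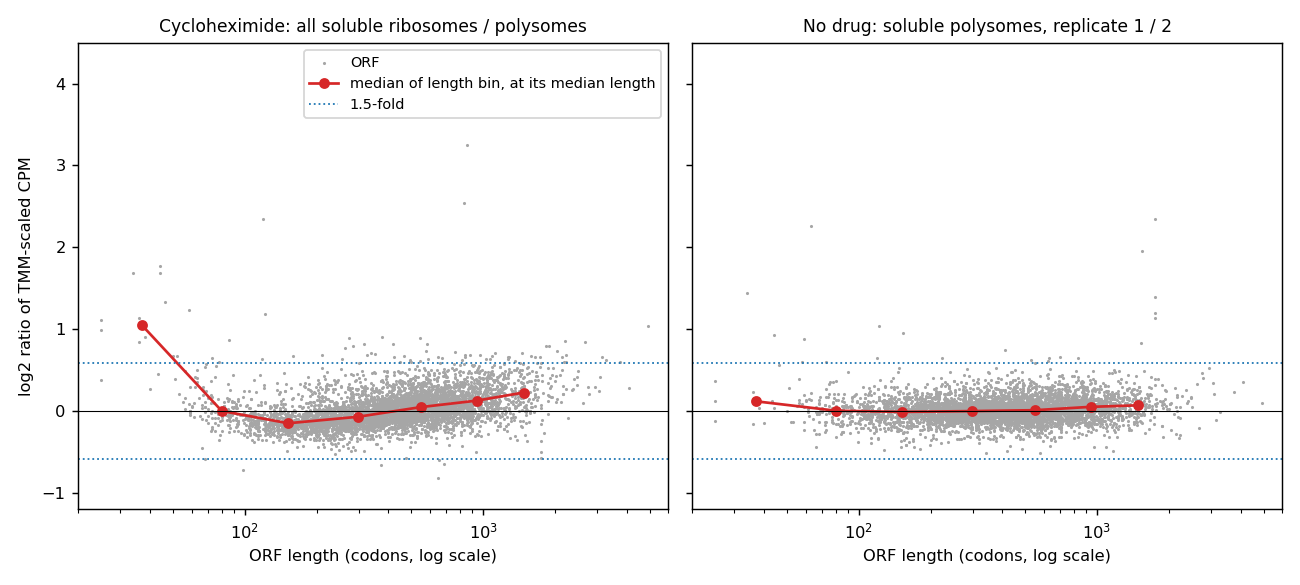
Log2 ratio of TMM-scaled CPM against ORF length in codons on a log scale, for all soluble ribosomes over soluble polysomes with cycloheximide (left) and for replicate 1 over replicate 2 of the drug-free soluble polysomes (right). Grey points are the 4896 ORFs, red points the medians of length bins and dotted lines 1.5-fold; the left medians run from 1.05 under 50 codons through -0.15 at 100 to under 200 codons to 0.22 at 1200 codons or more.

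In shares of the library, ORFs of 100 to under 200 codons held 19.7% of the counts of all soluble ribosomes and 22.9% of soluble polysomes. ORFs of 1200 or more codons held 5.20% against 3.85%, and the drug-free polysomes had 3.69% and 3.83%. For ORFs under 50 codons the shares were 0.259% and 0.132%, with 0.130% and 0.121% in the drug-free pair. In these sums the 3 polysome libraries lay near one another at both ends, and the library of all ribosomes lay above them. The sum under 50 codons came mostly from ORFs under 30 codons, which held 0.186% of all soluble ribosomes. At 30 to 39 codons the shares were 0.0329% in all soluble ribosomes, 0.0175% in soluble polysomes and 0.0322% and 0.0293% without drug. There the cycloheximide polysomes lay apart. At 40 to 49 codons they were 0.0398%, 0.0197%, 0.0155% and 0.0125% in this order. In single ORFs, the library of all ribosomes had the highest scaled CPM of the 4 for 10 of 12 ORFs under 50 codons and for 27 of 36 of 2000 or more, against 28.7% of all 4896 ORFs. It had the lowest for 75.8% of the ORFs of 100 to under 200 codons, against 34.3% of all.

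ORFs under 50 codons stood furthest apart, with a median log2 ratio of 1.05 over the 12 measured of 69 in the table. All 12 were above 0 and 9 passed 1.5-fold. The change along length was steep: the median was 0.99 over 3 ORFs under 30 codons, 1.02 over 4 of 30 to 39 and 1.34 over 5 of 40 to 49. It was 0.15 over 15 ORFs of 50 to 59 codons, 0.04 over 59 of 60 to 79 and -0.04 over 79 of 80 to 99. A filter on counts kept few of the shortest ORFs, and these medians describe only those kept.

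RPL41A and RPL41B encode the same 25-codon protein of the large ribosomal subunit and are the shortest ORFs with 1000 or more counts. RPL41B, at bases 221724 to 221801 of chromosome IV (build R64), had 1008 scaled CPM in all soluble ribosomes and 467.8 in soluble polysomes, with 448.0 and 417.1 in the drug-free replicates. Its log2 ratio was 1.11 (95% exact binomial interval 1.07 to 1.14). RPL41A had 892.5 scaled CPM against 450.9, with 337.3 and 372.3 in the drug-free pair, and a log2 ratio of 0.99 (0.95 to 1.02). For both copies the library of all ribosomes was the highest of the 4. The 3 polysome libraries lay close together for RPL41B. For RPL41A the cycloheximide polysomes were 0.35 above the mean of the drug-free pair on the log2 scale. The copies are nearly identical, and with no record of how shared reads were assigned the split between them is uncertain.

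MFA1 and MFA2 encode precursors of the mating pheromone a-factor, in 36 and 38 codons. MFA1 had 111.4 scaled CPM in all soluble ribosomes and 50.8 in soluble polysomes, with 106.5 and 91.6 without drug. MFA2 had 169.4 against 90.9, with 181.0 and 178.5 without drug. Their log2 ratios were 1.13 (1.02 to 1.24) and 0.90 (0.81 to 0.98). Here the cycloheximide polysomes were the low library, at -0.96 and -0.98 on the log2 scale against the mean of the drug-free pair, and all ribosomes lay at 0.17 and -0.09 against it. TOM5, a 50-codon subunit of the mitochondrial outer membrane import complex, was also lowest in the cycloheximide polysomes, with 84.2 scaled CPM against 52.8 and with 90.2 and 91.2 without drug. Its log2 ratio was 0.67 (0.56 to 0.79).

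Very short membrane proteins differed among themselves. OST4, a 36-codon subunit of the ER enzyme that attaches glycans to proteins, had 43.7 scaled CPM in all soluble ribosomes and 24.4 in soluble polysomes, with 17.9 and 20.1 without drug. Its log2 ratio of 0.84 (0.68 to 1.00) passed 1.5-fold. PMP1 and PMP2, small proteolipids that associate with the plasma membrane proton pump, had 0.27 (0.15 to 0.40) and 0.45 (0.34 to 0.56). PMP3, a 55-codon plasma membrane protein, had 0.11 (0.05 to 0.16). SSS1 and SBH1, the small subunits of the Sec61 translocation channel at 80 and 82 codons, had -0.03 (-0.10 to 0.03) and 0.11 (0.01 to 0.20). Among small ribosomal proteins, RPL39 at 51 codons had 0.39 (0.37 to 0.42), while its drug-free replicates differed by 0.27.

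The remaining ORFs under 50 codons were thinly counted or unstable between replicates. YJL047C-A, with 3971 and 1676 counts, had the highest ratio among ORFs of 1000 or more counts, at 1.68 (1.60 to 1.76). Its drug-free replicates also differed by 0.93, and 49 of its bases overlap a snoRNA gene. YER138W-A, with 112 and 47 counts, had 1.69 (1.19 to 2.21), and its drug-free pair differed by 1.44. RDT1 had 197 and 78 counts and a log2 ratio of 1.77 (1.39 to 2.17), with 0.03 between the drug-free replicates. YGL188C-A had 69 and 37 counts and 1.34 (0.74 to 1.95), with 0.57 between the replicates. YOR302W, the 25-codon upstream ORF that encodes the arginine attenuator peptide of CPA1, had 153 and 159 counts. Its ratio was 0.38 (0.05 to 0.71), and the drug-free pair differed by 0.37. These last ORFs were named after their values were seen, to account for all 12.

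At the other end, 35 of the 36 ORFs of 2000 or more codons were above 0, and 11 passed 1.5-fold. Their median log2 ratio was 0.38, against 0.10 between the drug-free replicates. Against the mean of the drug-free pair, all soluble ribosomes had a median of 0.38 over these ORFs and soluble polysomes -0.06. The drug differs in these last values as well as the fraction.

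MDN1, the largest ORF of the yeast genome at 4910 codons, encodes an AAA ATPase that assembles the large ribosomal subunit. At bases 349006 to 363738 of chromosome XII, it had 596.0 scaled CPM in all soluble ribosomes and 290.5 in soluble polysomes, with 313.4 and 295.4 without drug. Its log2 ratio was 1.04 (0.99 to 1.08). The 3 polysome libraries lay within a narrow range, and the library of all ribosomes lay well above it. DYN1, the heavy chain of dynein and the second longest ORF at 4092 codons, had 56.0 scaled CPM against 46.2, with 60.5 and 47.7 without drug. Its ratio of 0.28 (0.15 to 0.41) was below the 0.36 between its drug-free replicates. TRA1, a scaffold of chromatin acetylation complexes, had 0.60 (0.54 to 0.65). TOM1, a large ubiquitin ligase, had 0.62 (0.57 to 0.67), and VPS13, a lipid transfer protein, had 0.65 (0.59 to 0.72).

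Large metabolic enzymes had high ratios at high counts. FAS1 and FAS2 encode the subunits of fatty acid synthase. FAS1 had 4658 scaled CPM in all soluble ribosomes and 2810 in soluble polysomes, with 2621 and 3120 without drug. FAS2 had 3563 against 2061, with 1855 and 2335 without drug. Their log2 ratios were 0.73 (0.71 to 0.74) and 0.79 (0.77 to 0.81), while the drug-free replicates differed by -0.24 and -0.32. ACC1, acetyl-CoA carboxylase, which makes the substrate of fatty acid synthase, had 0.69 (0.67 to 0.71). URA2, which carries out the first steps of pyrimidine synthesis, had 2556 scaled CPM against 1413, with 1273 and 1614 without drug, and a ratio of 0.85 (0.83 to 0.88). DUR1,2, urea amidolyase, had 0.79 (0.66 to 0.92). For each of these 5 genes the library of all ribosomes was the highest of the 4.

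**Figure D2:**
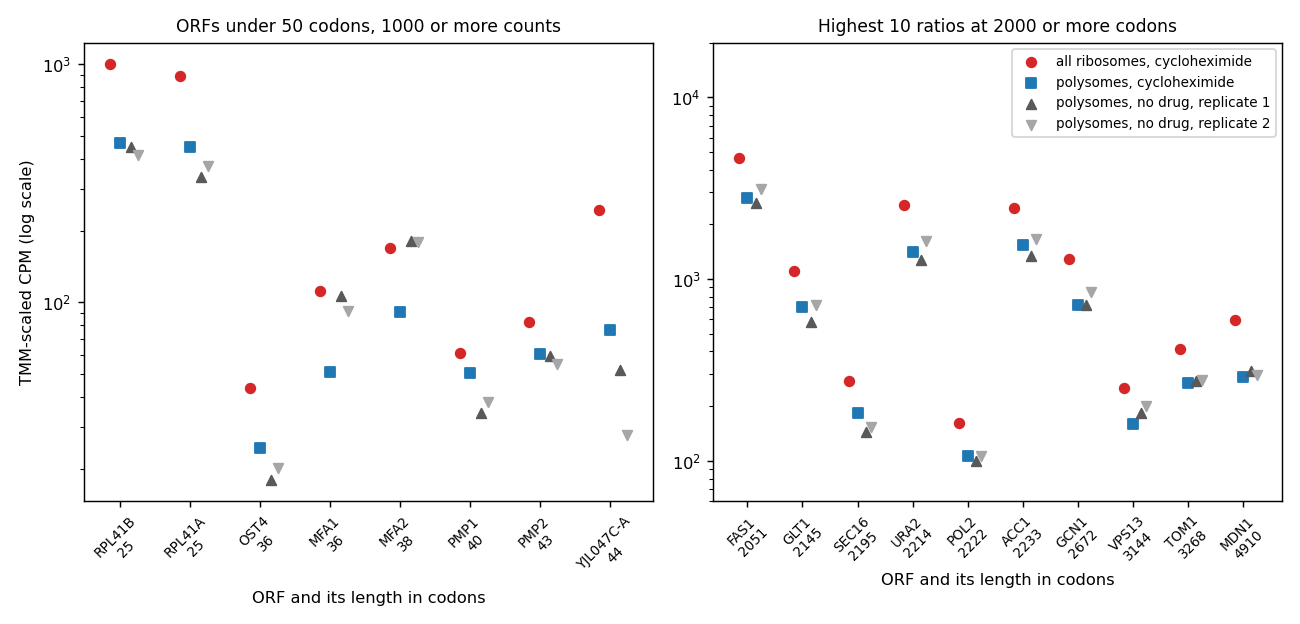
TMM-scaled CPM on a log scale in each of the 4 libraries, for ORFs under 50 codons with 1000 or more counts (left) and for the 10 ORFs of 2000 or more codons with the highest ratios among those with 1000 or more counts (right); the number under each name is its length in codons. All soluble ribosomes (red circles) lie above the 3 polysome libraries for every ORF shown except MFA2, whose 169.4 lies below the 181.0 and 178.5 of the drug-free polysomes. The ORFs on the right were chosen by ratio, so their order against the cycloheximide polysomes follows from the choice.

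The length dependence was steepest among messages with many soluble footprints per RNA. Footprints per RNA is the share of an ORF in the drug-free soluble polysome footprints over its share in soluble mRNA. It came from libraries other than the compared pair and was used to split each length bin into tertiles. Its median log2 value was -1.83 over the signal sequence and transmembrane classes and -0.38 over cytonuclear ORFs. The tertiles may therefore differ in class, and class was not separated from them. At 1200 or more codons the median log2 ratio was 0.43 in the high tertile, 0.21 in the middle tertile and 0.05 in the low tertile. At least 1.5-fold higher were 13 of 81, 6 of 80 and 2 of 81 ORFs in this order. At 800 to under 1200 codons the high and low tertiles had 0.25 and 0.06, and from 100 to under 400 codons all tertiles lay between -0.16 and -0.02.

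The drug-free replicates differed along the same axis, though less and with the order turned. At 1200 or more codons the median of replicate 1 over replicate 2 was -0.06 in the high tertile and 0.18 in the low tertile. The gap between the tertiles was therefore smaller than the 0.05 to 0.43 of the cycloheximide pair, but it shows that libraries of 1 group can differ in this way. Against the mean of the drug-free pair, the high tertile at this length had a median of 0.47 in all soluble ribosomes and 0.01 in soluble polysomes. Under 100 codons it was the low tertile that was highest, at 0.21 with 12 of 55 ORFs past 1.5-fold, against -0.02 with 0 of 55 in the high tertile. Counts moved with the tertiles: under 100 codons the median was 471 counts in the low tertile and 2559 in the high tertile, and the part of counting depth in this was not tested.

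**Figure D3:**
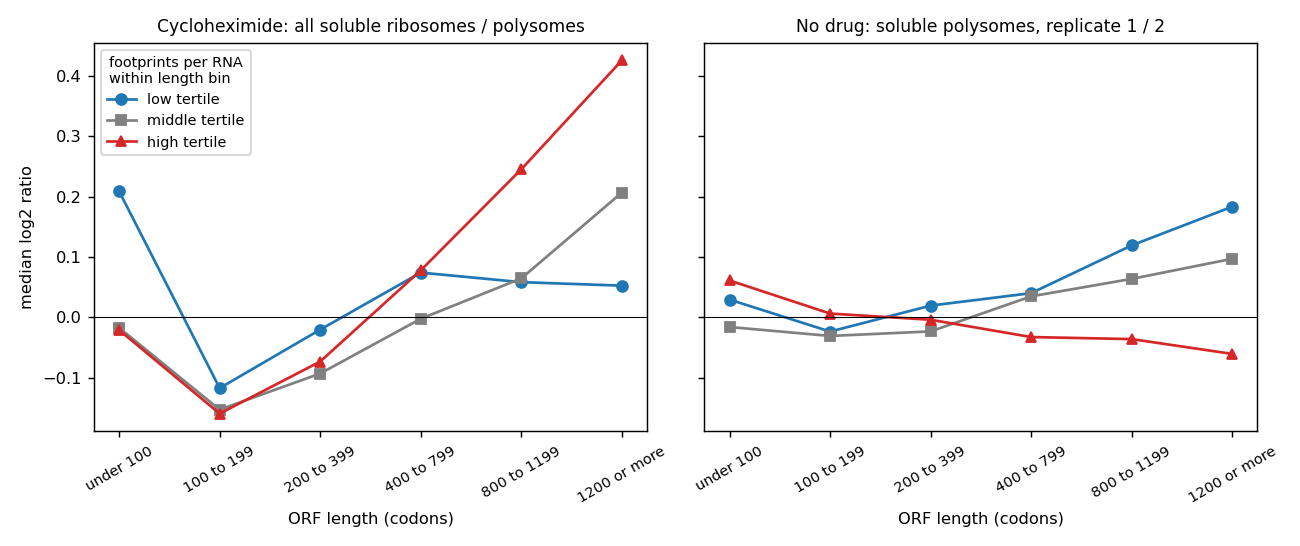
Median log2 ratio by ORF length bin for tertiles of footprints per RNA within each bin, for all soluble ribosomes over soluble polysomes with cycloheximide (left) and for replicate 1 over replicate 2 of drug-free soluble polysomes (right). On the left the high tertile (red) reaches 0.43 at 1200 or more codons and the low tertile (blue) 0.05; on the right the same points are at -0.06 and 0.18.

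Ribosomal proteins and several other lists lay on the low side, near the medians of ORFs of their length. Across the lists of this paragraph, the median difference of members from their own length bin ran from -0.04 for proteasome subunits to 0.06 for histones. Of 19 single-copy cytosolic ribosomal protein genes, 4 were above 0, and the median was -0.13. The 118 genes that come in pairs had a median of -0.12, and 2 of them, RPL41A and RPL41B, passed 1.5-fold. RPS31, which makes a small subunit protein fused to ubiquitin, had 3532 scaled CPM in all soluble ribosomes and 4091 in soluble polysomes, with 3682 and 3750 without drug, and a ratio of -0.21 (-0.23 to -0.20). RPL3, one of the longest ribosomal proteins at 387 codons, had 0.03 (0.02 to 0.04). The medians were -0.13 for 65 mitochondrial ribosomal proteins, -0.15 for 23 small cytosolic proteins, -0.12 for 38 subunits of the respiratory chain and ATP synthase, -0.09 for 33 proteasome subunits and -0.09 for 11 histones. None of the genes on these 5 lists passed 1.5-fold in either direction. Only 1.72% of all ORFs compared did, so this count says little about the lists. Between the drug-free replicates the same lists had medians of -0.01, -0.05, -0.15, -0.06 and -0.04, in this order. The respiratory chain and ATP synthase list was thus no lower in the compared pair than between libraries of 1 group.

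The lowest ratios among ORFs with 1000 or more counts were small in size, and none reached 1.5-fold. DOT5, a nuclear thiol peroxidase, had 48.4 scaled CPM in all soluble ribosomes and 65.5 in soluble polysomes, with 61.6 and 60.6 without drug, and a ratio of -0.44 (-0.56 to -0.31). MED11, a Mediator subunit, had -0.38 (-0.57 to -0.20). PAM16, a part of the motor that pulls proteins into the mitochondrial matrix, had -0.37 (-0.48 to -0.25), and COX8, a subunit of cytochrome c oxidase, had -0.36 (-0.48 to -0.24). The 10 lowest were of 78 to 236 codons. The 6 ORFs past 1.5-fold, AQY3, EGO4, YIA6, FMP40, SKM1 and HUG1, had 103 to 229 counts each, and the interval nearest to 0 was that of FMP40 at -0.65 (-1.29 to -0.03).

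Among the translation factors named here, the short ones lay below 0 and the long ones above. The 27 initiation factors had a median of 0.08 and none passed 1.5-fold. TIF11 (eIF1A), at 153 codons, had -0.27 (-0.31 to -0.22), and RPG1, the largest subunit of eIF3 at 964 codons, had 0.41 (0.38 to 0.45). Of 16 elongation and termination factors, with a median of 0.28, 3 passed 1.5-fold. These were GCN1, which works with the kinase Gcn2 on stalled ribosomes, and EFT1 and EFT2, which encode the same elongation factor 2 and whose split of reads is uncertain. GCN1 had 1294 scaled CPM against 720.6, with 723.0 and 846.2 without drug, and a ratio of 0.84 (0.81 to 0.87). YEF3, the fungal elongation factor 3, had 0.44 (0.43 to 0.45), and HYP2 (eIF5A), at 157 codons, had -0.17 (-0.19 to -0.16). The median difference of members from their own length bin was 0.04 for initiation factors. For elongation and termination factors it was 0.24, so this list lay above ORFs of its length. Over all ORFs compared, 1.72% passed 1.5-fold in either direction.

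Among metabolic and folding genes the median was 0.17 over 19 glycolytic and fermentation genes, none past 1.5-fold. Here TPI1, triose phosphate isomerase at 248 codons, was lowest at -0.11 (-0.12 to -0.10), and PFK2, a subunit of phosphofructokinase at 959 codons, was highest at 0.55 (0.53 to 0.56). It was 0.12 over 50 genes of amino acid synthesis, of which 4 passed 1.5-fold, and 0.10 over 29 cytosolic chaperones, of which none did. HSP104, a disaggregase of 908 codons, had 0.54 (0.51 to 0.58), and SBA1, an Hsp90 co-chaperone of 216 codons, had -0.23 (-0.27 to -0.19). The 31 nucleolar assembly factors had a median of 0.16, with MDN1 alone past 1.5-fold. A list of 37 large enzymes and scaffolds had a median of 0.42, with 12 past 1.5-fold and all 37 above 0. The list has a median of 2145 codons and shares members with the ORFs of 2000 or more codons, whose median was 0.38. Against their own length bin, members had a median difference of 0.16 for glycolysis and fermentation and 0.12 for amino acid synthesis. This difference was 0.07 for chaperones, 0.10 for nucleolar factors and 0.20 for large enzymes and scaffolds. Over all ORFs compared, 1.72% passed 1.5-fold in either direction.

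Regulatory genes had list medians near 0. The median was -0.01 over 68 transcription factors and -0.00 over 30 cyclins and cell cycle regulators, with none past 1.5-fold. Over all ORFs compared, 1.72% passed this fold in either direction. Of 17 messages with regulatory upstream frames, 16 were measured, with a median of -0.01 and none past 1.5-fold. GCN4, the activator of amino acid synthesis that is held back by its upstream ORFs, had 28.5 scaled CPM in all soluble ribosomes and 24.3 in soluble polysomes, with 27.2 and 21.7 without drug. Its ratio of 0.24 (0.05 to 0.42) was below the 0.34 between its drug-free replicates. HAC1, whose unspliced message is blocked in translation, had 0.26 (0.02 to 0.51), with 0.21 between the replicates. CPA1, YAP1 and CLN3 had -0.03, 0.01 and -0.06, each with an interval that includes 0.

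**Figure D4:**
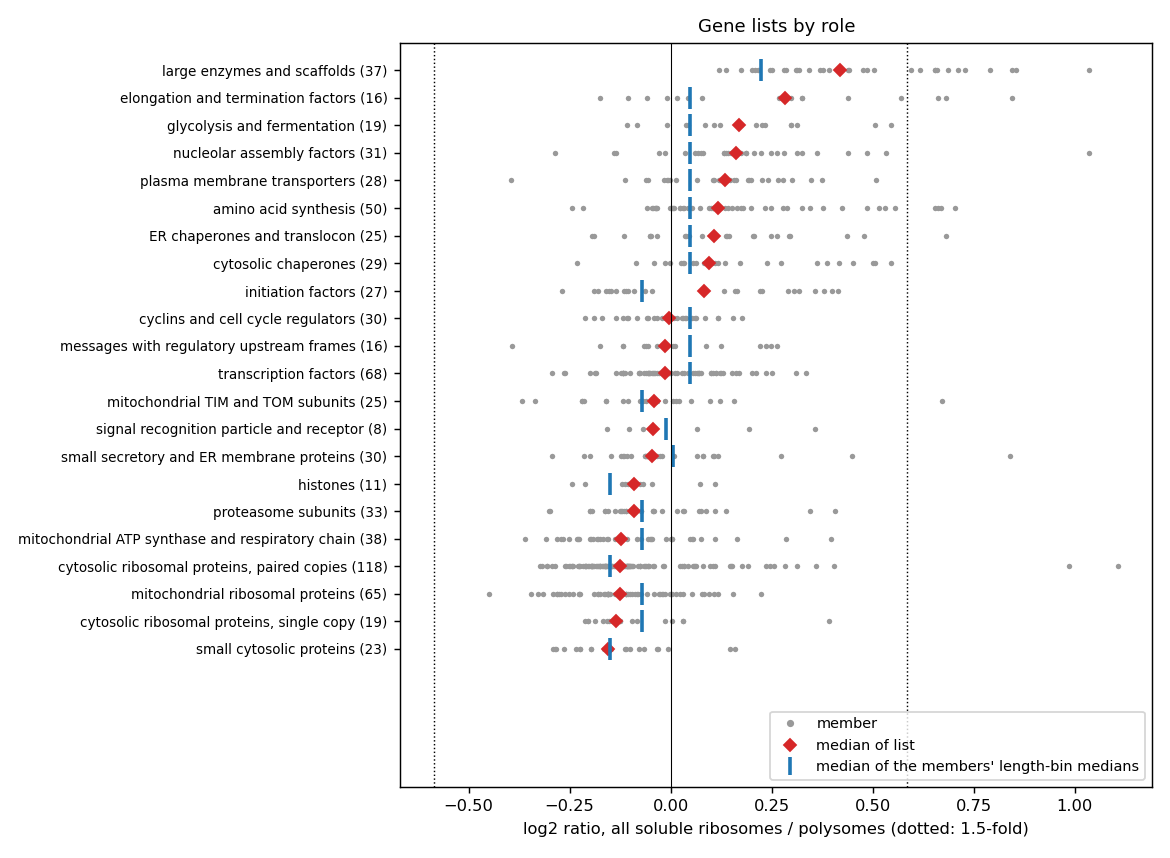
Log2 ratio of all soluble ribosomes over soluble polysomes for the measured members (grey points) of gene lists by role, with the number of measured members after each name. Red diamonds are list medians, from -0.15 for small cytosolic proteins to 0.42 for large enzymes and scaffolds, blue ticks the median of the length-bin medians of the members, and dotted lines 1.5-fold.

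Secretory ORFs were slightly higher than cytonuclear ones. By the classes of the authors' table, the median log2 ratio was -0.02 over 3245 cytonuclear ORFs, 0.08 over 133 with a signal sequence, 0.12 over 389 with transmembrane segments and 0.10 over 59 with both. It was -0.09 over 50 tail-anchored proteins and -0.05 over 522 mitochondrial ones. The signal sequence and transmembrane classes together lay 0.13 above the cytonuclear class, and 0.11 above it within length bins, against 0.01 for each quantity between the drug-free replicates. By single class within length bins, the drug-free replicates differed by -0.09 for signal sequences and 0.04 for transmembrane segments, which offset each other in the pooled value, and the cycloheximide pair by 0.12 and 0.11. The pooled classes had a median of 370 counts against 1985. Among ORFs with 500 or more counts the pooled difference was 0.07, and 0.08 within length bins. In that set the medians were 0.09 for signal sequences, 0.02 for transmembrane segments, 0.04 for both and -0.01 for the cytonuclear class. The transmembrane class thus lay close to the cytonuclear one there. Past 1.5-fold and higher were 15 of the 581 ORFs of the pooled classes (2.58%) and 41 of the 3245 cytonuclear ORFs (1.26%), against 1.59% of all ORFs compared.

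The class difference depended on length. It was -0.10 under 100 codons, from 16 secretory and 97 cytonuclear ORFs, then 0.10 at 100 to under 200 codons, 0.18 at 200 to under 400, 0.12 at 400 to under 800 and 0.04 at 800 to under 1200. At 1200 or more codons it was below 0 again, at -0.27, from 21 secretory ORFs with a median of -0.00 and 159 cytonuclear ORFs with 0.27. Over the 3 bins from 400 codons the secretory medians were 0.15, 0.17 and -0.00, while those of cytonuclear ORFs went from 0.03 through 0.13 to 0.27.

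**Figure D5:**
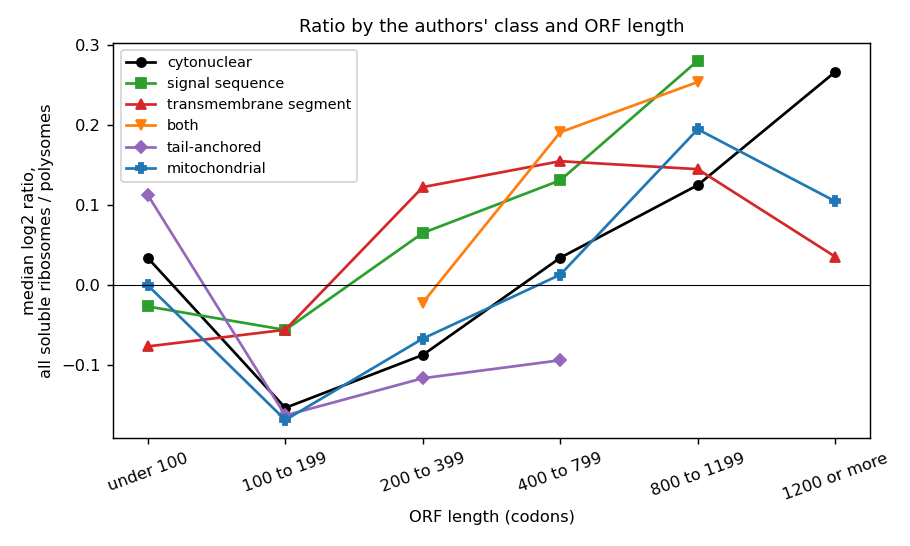
Median log2 ratio of all soluble ribosomes over soluble polysomes by ORF length bin for classes of the authors' table, shown where a class has 5 or more ORFs in a bin. Cytonuclear ORFs (black) run from -0.15 at 100 to under 200 codons to 0.27 at 1200 or more; ORFs with transmembrane segments (red) lie at 0.12 to 0.15 from 200 to under 1200 codons and at 0.04 above that.

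Among single secretory genes, KAR2, the Hsp70 chaperone of the ER lumen, had 58.7 scaled CPM in all soluble ribosomes and 42.2 in soluble polysomes, with 46.1 and 47.7 without drug, and a ratio of 0.48 (0.35 to 0.61). SEC61, the channel itself, had 0.21 (0.02 to 0.39), and PMA1, the plasma membrane proton pump, 0.26 (0.22 to 0.31). The lists gave medians of 0.11 over 25 ER chaperones and translocon genes, with LHS1 past 1.5-fold, 0.13 over 28 plasma membrane transporters, with none, and -0.05 over 30 small secretory and ER membrane proteins, with OST4. Over all ORFs compared, 1.72% passed this fold in either direction. Genes of SRP and its receptor had a median of -0.04 over 8, and the tagged SRP72 had 0.19 (0.11 to 0.28).

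The ratio also differed with the place of the signal. Codons from the first signal to the stop codon measure how far translation goes on after a signal can be exposed. Over ORFs of the secretory classes the median log2 ratio was -0.06 where under 100 codons followed the signal, -0.02 for 100 to under 200, 0.12 for 200 to under 400, 0.15 for 400 to under 800 and 0.17 for 800 or more. ORF length rose alongside, from a median of 120 codons in the first of these groups to 1045 in the last, and was not separated from it. The median ratio was 0.12 where the first signal lay before codon 50, and -0.02 over 57 ORFs where it lay at codon 200 or later. The 280 ORFs that the authors' table marks as SRP dependent had a median of 0.17, and the 204 marked as independent had 0.10. Between the drug-free replicates these groups were at 0.06 and -0.03, a gap at least as large. The medians thus did not differ beyond the spread of libraries of 1 group. At least 1.5-fold higher were 19 dependent ORFs (6.79%) and 5 independent ones (2.45%), against 1.59% of all ORFs compared. Between the drug-free replicates 3 and 2 passed. The dependent ORFs had a median of 257.5 counts and the independent ones 444.5, and the part of counting depth was not tested. Those marked for SRP prerecruitment, that is SRP bound before the signal emerges, had 0.15 over 422 ORFs, and those marked without it -0.03 over 81. The latter are shorter, at a median of 227 codons against 474.5, and length was not separated from the mark either.

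ORFs of the mitochondrial genome are translated by the mitochondrion's own ribosomes, which cycloheximide does not block. Their footprints were rare in the soluble fraction: over 19 ORFs there were 667 counts in all soluble ribosomes and 141 in soluble polysomes, with 46 and 26 in the drug-free polysomes. The log2 ratio of these sums was 2.68 (2.41 to 2.95), the largest of any group described here. The 2 that passed the count minimum were AI1, with 223 and 52 counts and a ratio of 2.54 (2.10 to 3.001), and AI2, with 134 and 19 counts and 3.25 (2.56 to 4.03). Both are reading frames within the introns of COX1, whose exons they share, so reads there cannot be given to one of them with certainty. Without the mitochondrial genome, 76 ORFs were at least 1.5-fold higher.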

How the data were processed

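Ribosome-protected fragments of about 30 nucleotides were sequenced, per the labels' protocols. Read counts per ORF were deposited by the authors as whole numbers that are not normalized. The submitters' processing notes name CASAVA, cutadapt 1.3, Bowtie, TopHat and the build sacCer3. The counting tool, its use of strand and its treatment of reads with several matches are not given in the sources used here. ORF class, length, signal position and the SRP marks are the authors' annotation; gene symbols, positions and overlaps came from RefSeq (R64), which matched 5902 ORFs.

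From the counts, edgeR 4.0.16 (R 4.3.3) gave TMM factors, 0.978 for all soluble ribosomes and 1.02 for soluble polysomes. Log2 ratios have 95% Clopper-Pearson intervals from Python 3.11.15 with scipy 1.17.1; no p-value is possible with 1 library a side. Scaled CPM and values against the drug-free pair use factors over the 4 libraries. The interval was tested on simulated counts that held counting error only, so variation between libraries was not covered. Fragments carry no molecular identifiers.

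Genes named are the 10 highest and lowest ratios at 1000 or more counts, the 5 shortest and longest ORFs, the extremes and most counted member of each list, and a fixed set; others are named where a small count required it. Members, lists and bins were chosen with earlier results of these data known. Soluble monosome libraries were not analysed here.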

Additional observations from a re-analysis of the deposited data

How the results depend on the processing

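No paired analysis was possible because each side of the comparison is 1 library. Scaling by total counts, by relative log expression factors or with the cytonuclear class set to 0 left 57 to 88 ORFs higher and 4 to 9 lower, each within 1.5 times of 78 and 6, and left the differences of medians as they were, since they do not depend on the scaling. With every ORF that had a count in both libraries, 223 were higher and 106 lower, since thinly counted ORFs enter. With 500 or more counts, 40 were higher and 0 lower, the short minus long difference was -0.30, and the secretory minus cytonuclear difference was 0.067, or 0.075 within length bins; why the class difference was smaller was not tested. At 2-fold, 12 were higher and 0 lower. Taking under 100 against 1200 or more codons gave -0.22; both limits change there, and the cause was not tested. Some values near 0 changed sign with the scaling: with total counts the median was -0.016 for ORFs of 400 to under 800 codons and -0.022 for the class of exceptions, and PGK1, NOP56 and RPL3 were at -0.026, -0.027 and -0.032; with the cytonuclear class set to 0 the median of all ORFs was 0.012. Leaving out ribosomal protein genes, unnamed ORFs, ORFs under 50 codons, the mitochondrial genome or ORFs that overlap another gene left 64 to 77 ORFs higher and 4 to 6 lower; the last 3 were chosen after seeing the data.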

Other observations

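Both cycloheximide libraries of the soluble fraction held less of the secretory classes than the drug-free soluble polysomes did, at 3.55% and 3.66% of counts against 4.60% and 4.84%. Within length bins, the median log2 value against the mean of the drug-free pair was lower for ORFs with a signal sequence or transmembrane segment than for cytonuclear ORFs, by a difference of -0.47 in all soluble ribosomes and -0.62 in soluble polysomes. Single genes varied. SEC61 was at -0.61 and -0.81 in these libraries and SEC62, another translocation protein, at -0.89 and -0.70. In contrast, KAR2 was at 0.32 and -0.15, HXT3, a hexose transporter, at 0.20 and -0.15, and PMA1 at 0.12 and -0.15. The fraction is the same for the polysomes and the drug is not, and with 1 cycloheximide library each the drug and the preparation cannot be told apart. Mitochondrial ORFs had differences of -0.33 and -0.34 from cytonuclear ones on the same scale.

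Of the 78 ORFs at least 1.5-fold higher, 5 overlap another gene, AI1 and AI2 among them. The share of overlapping ORFs among all those compared was not counted. YCL042W, of 119 codons, had a log2 ratio of 2.34 (1.98 to 2.71), and its drug-free replicates differed by 0.64; it overlaps YCL040W by 106 bases. YBR090C had 1.19 (0.92 to 1.46), and its drug-free replicates differed by 1.03. YCL042W and YBR090C were chosen after their values were seen. NHP6B, which overlaps YBR090C, had -0.29 (-0.46 to -0.13).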
